A study of Mus musculus with 28 samples.

Results

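H3K4me1, the monomethyl form of lysine 4 on histone H3, was mapped by chromatin immunoprecipitation with sequencing in IDG-SW3 cells at day 35 and at day 3 of osteogenic culture. The members were every region in the deposited H3K4me1 list of each day on chromosomes 1 to 19, which came to 97593 regions at day 35 and 89210 at day 3. Together these are 186803 of the 937290 regions in the 26 region lists, which come from a study of 28 samples on histone marks and on binding of the vitamin D receptor and its partner. IDG-SW3 is an immortalized mouse bone line that was expanded at 33 °C with interferon gamma and moved to 37 °C in osteogenic medium without it, where it passes from late osteoblast to mineralizing osteocyte-like cells. A GFP reporter under the Dmp1 promoter is part of the line, and its promoter copies can add reads at Dmp1 itself, which was not tested. Both H3K4me1 libraries came from cells for which no treatment is listed, and there was 1 library a day, so no value here has a replicate check and no test of the day was possible. Both days lie after the switch to that medium, which held ascorbic acid and β-glycerol phosphate, so the day cannot be told apart from the time since interferon gamma and 33 °C or from the EDTA washes that removed calcified matrix from differentiated cells. The line is a single one, so it shows 1 cell source.

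H3K4me1 is laid down by the MLL3 and MLL4 methyltransferases and marks enhancers, including ones that are primed but not active, and it also flanks the start sites of transcribed genes. At an active enhancer it usually sits beside histone acetylation such as H3K27Ac, while H3K4me3 takes its place at the centre of active promoters. Bone cells use distal enhancers bound by RUNX2 and AP-1 factors to drive matrix and mineralization genes, and many of these lie far from the gene they serve.

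The extent of H3K4me1 was nearly equal on both days. In bases, day 35 had 338.0 Mb under H3K4me1 and day 3 had 338.7 Mb. Of all bases covered on either day 66.6%, or 270.5 Mb, were covered on both. H3K4me2 shared 55.9% of its covered bases between days, H3K27Ac 58.8%, H3K36me3 71.6% and H3K9me3 20.1%, so H3K4me1 lay between the acetyl marks and the mark of transcribed bodies. The median region was 1865 bp wide at day 35 and 2005 bp at day 3. The widest was a 149.2 kb region inside the Runx2 gene at day 35 and a 145.9 kb region inside Rbfox2 at day 3. Read depth is not stated, and its part in the number of regions called each day was not tested.

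Most of what differed lay within regions that overlapped one of the other day. Of the bases covered at day 35 alone, 67.7% lay in regions that overlapped a day-3 region, and of the bases covered at day 3 alone, 81.3% lay in regions that overlapped a day-35 region. Whole regions found on 1 day were counted as gained or lost when they had no base within 2 kb of a protein-coding start site and shared no base with a region of the other day. By this rule 18374 of 82265 distal day-35 regions were gained, or 22.3%, and 12072 of 74314 distal day-3 regions were lost, or 16.2%. With both lists cut to the same number of top-scoring regions the order turned, with 13630 gained and 14870 lost. Near start sites 817 regions were found at day 35 alone and 585 at day 3 alone.

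Gained and lost regions were narrow and mostly low in score. Their median widths were 808 bp for gained and 744.5 bp for lost regions, against 2035 bp for distal day-35 regions that were kept. Among the lowest score quintile of distal regions, 54.5% at day 35 and 46.5% at day 3 had no partner on the other day. Among the highest score quintile these shares were 0.626% at day 35 and 0.209% at day 3. Scores are those the authors deposited and served only to rank regions within a list. The median distance to the nearest start site was 44.8 kb for gained and 39.0 kb for lost regions, 53.6% of gained and 53.5% of lost regions were intergenic, and 43.8% of gained and 43.7% of lost regions lay in introns.

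The sequences of 8 such regions are given because the genes near them recur in the results. Each is the middle 200 bases of its region or, at Bmp2, 200 bases at the peak of the retinoid X receptor (RXR) inside it. All are from the NCBIM37 (mm9) assembly on the plus strand, and capitals mark matches to the searched motifs on either strand: RUNX TGTGGT, AP-1 TGANTCA, TEAD GGAATG, STAT TTCNNNGAA and homeobox TAATTA in these windows.
Bmp2 gained, chr2:133492093-133492292: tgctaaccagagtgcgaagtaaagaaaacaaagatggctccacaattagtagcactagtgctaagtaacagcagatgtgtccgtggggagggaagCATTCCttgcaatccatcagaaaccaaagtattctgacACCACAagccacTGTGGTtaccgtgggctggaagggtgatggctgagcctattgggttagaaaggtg
Ibsp gained, chr5:104716503-104716702: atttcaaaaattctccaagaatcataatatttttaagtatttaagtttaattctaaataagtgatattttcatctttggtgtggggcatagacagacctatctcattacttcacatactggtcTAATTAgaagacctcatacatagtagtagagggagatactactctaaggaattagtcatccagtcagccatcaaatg
Plxna2 gained, chr1:196164102-196164301: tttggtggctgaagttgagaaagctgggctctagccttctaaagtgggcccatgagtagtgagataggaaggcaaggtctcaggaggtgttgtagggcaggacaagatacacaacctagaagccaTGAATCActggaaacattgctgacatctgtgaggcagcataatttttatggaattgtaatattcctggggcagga
Gli2 gained, chr1:120834654-120834853: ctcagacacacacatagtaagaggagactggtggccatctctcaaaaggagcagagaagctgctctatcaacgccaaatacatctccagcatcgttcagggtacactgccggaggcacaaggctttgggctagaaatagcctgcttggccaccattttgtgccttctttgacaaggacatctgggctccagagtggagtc
Gbp3 lost, chr3:142215558-142215757: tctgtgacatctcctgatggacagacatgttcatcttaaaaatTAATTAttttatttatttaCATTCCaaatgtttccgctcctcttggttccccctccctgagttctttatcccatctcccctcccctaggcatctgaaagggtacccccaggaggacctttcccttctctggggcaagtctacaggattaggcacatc
Ciita lost, chr16:10474594-10474793: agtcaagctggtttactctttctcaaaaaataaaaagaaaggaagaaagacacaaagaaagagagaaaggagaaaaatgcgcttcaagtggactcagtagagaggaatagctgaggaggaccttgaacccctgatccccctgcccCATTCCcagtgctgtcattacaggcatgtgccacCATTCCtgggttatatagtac
Sema3e lost, chr5:13968308-13968507: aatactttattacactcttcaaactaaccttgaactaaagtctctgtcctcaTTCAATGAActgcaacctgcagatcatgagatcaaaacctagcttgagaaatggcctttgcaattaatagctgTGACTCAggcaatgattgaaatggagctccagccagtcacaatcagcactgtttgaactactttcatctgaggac
Dach1 lost, chr14:97797586-97797785: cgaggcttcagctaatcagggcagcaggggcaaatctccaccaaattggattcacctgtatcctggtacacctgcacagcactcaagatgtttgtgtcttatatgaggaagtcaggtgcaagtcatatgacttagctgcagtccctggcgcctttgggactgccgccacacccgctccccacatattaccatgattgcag
The Bmp2 window holds a RUNX match on each strand and a TEAD match, and it lies in a 3.203 kb intergenic region 114.1 kb downstream of the Bmp2 start. The Ibsp window lies in a 3.571 kb intergenic region 11.6 kb upstream of Ibsp. Both regions carried H3K27Ac, H4K5Ac and H3K4me2 at day 35 and none of the 3 at day 3. The Plxna2 region lies 281.8 kb upstream of that gene, and the Gli2 region is a 13.479 kb stretch of a Gli2 intron. The lost Gbp3 region lies 7.36 kb upstream of Gbp3, the lost Ciita region 5.54 kb upstream of Ciita, and the lost Dach1 region 771 kb downstream of the start of Dach1 in intergenic sequence. The Gli2 and Dach1 windows hold no match to any of the 13 motifs.

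Gained regions carried other active marks mainly at day 35. H3K27Ac, the acetyl mark of active elements, overlapped 26.5% of gained regions at day 35 (95% Wilson interval 25.8 to 27.1%) and 3.00% at day 3 (2.76 to 3.26%). H4K5Ac, another acetyl mark, overlapped 38.3% at day 35 and 5.01% at day 3. H3K4me2 overlapped 14.5% at day 35 and 0.484% at day 3. These intervals cover counting error only.

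Lost regions showed the reverse for the acetyl marks, but not for H3K4me2. H3K27Ac overlapped 7.50% of lost regions at day 35 (7.05 to 7.99%) and 21.2% at day 3 (20.5 to 21.9%), and H4K5Ac overlapped 15.0% at day 35 and 35.1% at day 3. H3K4me2 overlapped 6.14% of lost regions at day 35 and 3.98% at day 3. The whole H3K4me2 list covered 1.48 times as many bases at day 35 as at day 3, a whole-list difference that moves with this result, and its part in it was not tested. Kept day-35 regions no wider than 2 kb, of a size nearer to the gained ones, carried H3K27Ac at 46.6% at day 35 and 49.8% at day 3. Kept day-3 regions no wider than 2 kb carried it at 50.7% and 41.0%, so this order turned with the day whose regions were taken. H3K4me2 stood at 42.5% of these kept day-3 regions at day 35 and 15.9% at day 3, a wider difference than in lost regions.

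**Figure D1:**
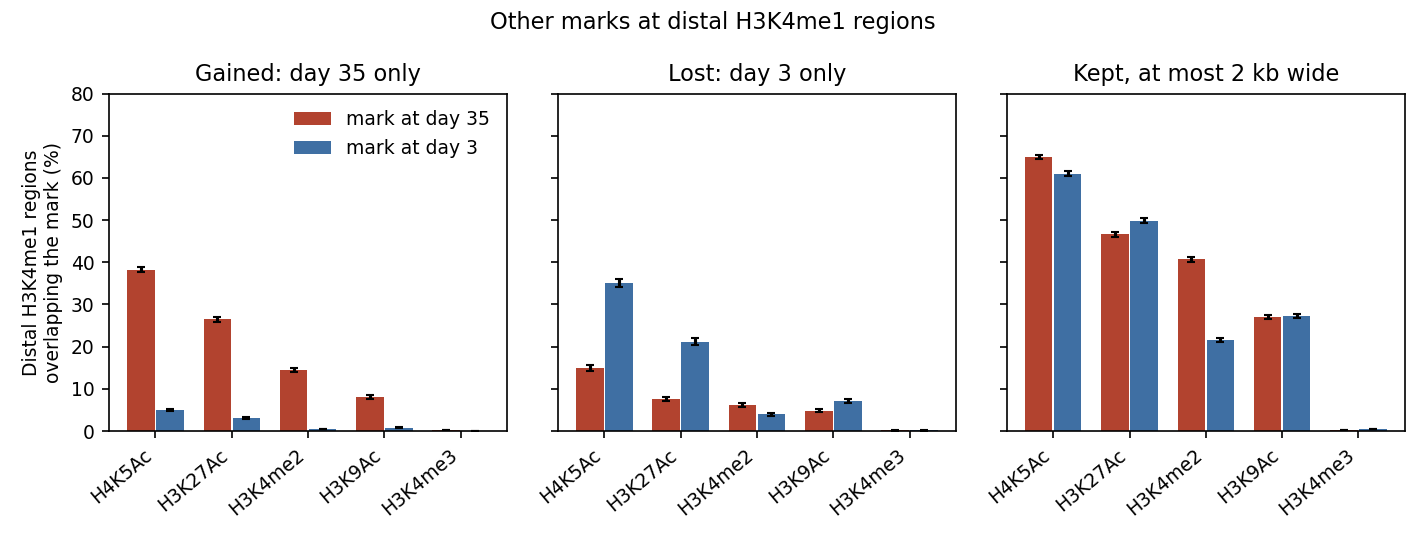
Share of distal H3K4me1 regions (%) that overlap each other mark at day 35 (left bar of each pair) and day 3 (right bar), for 18374 gained, 12072 lost and 31493 kept day-35 regions of at most 2 kb. Error bars are 95% Wilson intervals of counting error; H3K27Ac stands at 26.5% at day 35 and 3.00% at day 3 in gained regions, and at 7.50% and 21.2% in lost ones.

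Many regions found on 1 day carried no other active mark. None of H3K27Ac, H4K5Ac, H3K9Ac and H3K4me2 was called on either day at 50.5% of gained and 54.1% of lost regions. Among kept day-35 regions the share was 8.62% in all, and 16.0% in those no wider than 2 kb. The share depended on the score. In the lowest score quintile, 29.5% of gained regions had at least 1 of the 4 marks at day 35, and in the highest score quintile all 103 had.

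Among the highest scores, many regions carried active marks on both days. Of the 31 lost regions in the highest score quintile of the day-3 list, 64.5% carried 1 of the 4 active marks on both days, and of the 103 gained regions in the highest score quintile of the day-35 list, 19.4% did. Among the 10 highest-scoring lost regions, 9 had active marks on both days and only the one at Dach1 had them at day 3 alone. Among the 10 highest-scoring gained regions, 5 had them on both days, among them the top 3, near Fam92b, Ube2v2 and Slc44a3. At these places H3K4me1 was called on 1 day while at least 1 of the 4 marks was called on both. The other 5, near Gli2, Dapk1, Adra2c, Plxna2 and Hrh4, had H3K4me2, H3K27Ac, H4K5Ac and H3K9Ac at day 35 and no listed mark at day 3.

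Motif content differed between gained and lost regions. In the middle 500 bases, the RUNX letters TGTGGT were found in 45.8% of gained and 35.6% of lost regions, against 39.8% of all distal regions of both lists. RUNX factors include RUNX2, the master regulator of osteoblasts. The AP-1 letters TGANTCA, bound by FOS and JUN dimers, were found in 28.3% of gained and 17.7% of lost regions, against 22.9% of all distal regions. The E-box CAGCTG stood at 27.4% of gained, 20.1% of lost and 24.4% of all. Kept day-35 regions no wider than 2 kb lay closer to the gained ones than all distal regions did, with AP-1 at 27.2%, CAGCTG at 26.4% and RUNX at 42.1%.

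Lost regions held more of some other motifs. The interferon response letters GAAANNGAA, which IRF and STAT complexes bind, were found in 17.4% of gained, 22.4% of lost and 18.7% of all distal regions. In kept day-35 regions no wider than 2 kb these letters stood at 19.6%. They stood at 25.6% in the 1890 lost regions with H3K27Ac at day 3 alone, and at 16.4% in the 4418 gained regions with H3K27Ac at day 35 alone. The homeobox letters TAATTA stood at 14.2% of gained, 18.4% of lost and 15.0% of all. TEAD and STAT letters differed little, with TEAD at 30.0% of gained and 29.2% of lost and STAT at 17.8% and 17.5%.

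Base composition moved with these shares. The mean GC content was 44.7% in gained, 41.5% in lost and 44.1% in all distal regions. It was 41.6% in the lost regions with H3K27Ac at day 3 alone, for which no share at matched GC was counted. Among regions with 40 to 46% GC, RUNX stood at 46.02% of gained and 37.6% of lost, and AP-1 at 30.3% and 18.1%. In the same band the interferon response letters stood at 19.1% of gained, 22.0% of lost and 20.6% of kept day-35 regions no wider than 2 kb. The homeobox letters were then at 15.1% of gained and 15.4% of lost, so that difference was not seen within the band. The remaining 6 of the 13 motifs (C/EBP TTGCNNAA, NFI TTGGCA, steroid receptor ACANNNTGT, nuclear receptor AGGTCA, E-box CACGTG and GC box GGGCGG) included AGGTCA at 30.5% of gained and 26.3% of lost regions, and at 29.8% and 28.3% within the band. C/EBP stood at 24.04% of gained and 22.9% of lost regions, and at 25.7% and 21.8% within the band. NFI went the other way, at 30.4% of gained and 32.4% of lost regions, and at 30.6% and 33.3% within the band. Kept day-35 regions no wider than 2 kb held NFI at 34.8%. A match describes letters in a window and is not a binding site.

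Gained regions were spread over 7137 nearest genes and lost ones over 5667. The genes named next were picked because they had the most net gained or lost distal bases. Each region was assigned to the nearest protein-coding start site, which need not be the gene it acts on. Auts2, a nuclear protein best known in neurons, had 47 distal regions at day 35 and 3 at day 3, and 44 of them were gained and 0 lost. At 33 of these 44 an active mark was called at day 35, and at 2 at day 3. Plxna2, a semaphorin receptor, had 47 distal regions at day 35 and 16 at day 3, with 36 gained and 0 lost. Thrb, the thyroid hormone receptor beta, had 35 gained and 0 lost, and at 12 of the 35 an active mark was called at day 35.

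Bmp2, a bone morphogenetic protein that drives osteoblast differentiation, had gains on both sides of the gene. It had 34 distal regions at day 35 and 1 at day 3, with 33 gained and 0 lost, spread from 205.3 kb upstream to 488.1 kb downstream of its start. At day 35, H4K5Ac was called at 17 of the 33, H3K4me2 at 12 and H3K27Ac at 11, and at day 3 none of the 3 was called at any of them. Hao1, a liver peroxisomal enzyme, is the next protein-coding gene, and its 28 gained regions continue the same stretch. Over the 1.15 Mb from the first to the last of these, chr2:133172278-134324391, 61 regions were gained and 0 lost, and H3K4me1 covered 11.8% at day 35 and 1.67% at day 3. H4K5Ac covered 17.3% of that stretch at day 35 and 0.526% at day 3.

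Losses also formed long tracts, in which other regions were kept. A 2.98 Mb stretch of chromosome 10 (chr10:14494169-17469197) lies between Nmbr, the neuromedin B receptor, and Cited2, a transcriptional coregulator. It held 209 distal regions at day 3, of which 95 were lost, and 134 at day 35, of which 4 were gained. H3K4me1 covered 11.2% of it at day 35 and 22.2% at day 3, and H4K5Ac 16.3% at day 35 and 34.1% at day 3. Between Ttll7, a tubulin polyglutamylase, and Lphn2, an adhesion receptor, lies a 2.15 Mb stretch of chromosome 3. It held 191 distal regions at day 3, of which 58 were lost, and 161 at day 35, of which 1 was gained. H3K4me1 covered 25.8% of that stretch at day 35 and 40.9% at day 3. Cdh18, a neuronal cadherin, had 74 of its 104 distal day-3 regions lost and 3 gained. Epha7, an ephrin receptor, had 47 of 89 lost and 1 gained, and Zfpm2, a GATA cofactor, 31 of 58 lost and 4 gained. The other gene with many losses was Cadm2, a neuronal adhesion molecule, with 28 of 54 lost and 3 gained. On the gained side stood Epha4, an ephrin receptor, with 28 gained and 2 lost, Kcnma1, a potassium channel, with 32 and 13, and Adamts17, a secreted protease, with 19 and 0, although Adamts17 had 53.2% of the 2 kb on each side of its start covered at day 35 and 63.6% at day 3.

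In 100 kb windows the largest difference in favour of day 35 was inside Gli2, a transcription factor of Hedgehog signalling. H3K4me1 covered 73.5% of that window at day 35 and 20.9% at day 3, and H3K27Ac 50.3% at day 35 and 5.75% at day 3. Windows inside Col5a1, which encodes a fibrillar collagen, and Mtss1, an actin regulator, stood at 69.0% and 75.4% at day 35, against 17.1% and 31.4% at day 3. The other windows among the 6 were in Gm239, Dapk1 and at Ppfibp2 and Cyb5r2. In the Gm239 window, on chromosome 10, H3K9me3 was higher at day 35 too, with 65.8% against 13.9% at day 3. The largest difference the other way was in Zfpm2, with 11.8% at day 35 and 62.5% at day 3. A pair of neighbouring windows nearest to Adamts5, an aggrecanase, stood at 32.4% and 24.01% at day 35, against 75.9% and 67.1% at day 3. The remaining ones were at Dgki, at Akap6 and on chromosome 4 in a window with no protein-coding gene.

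**Figure D2:**
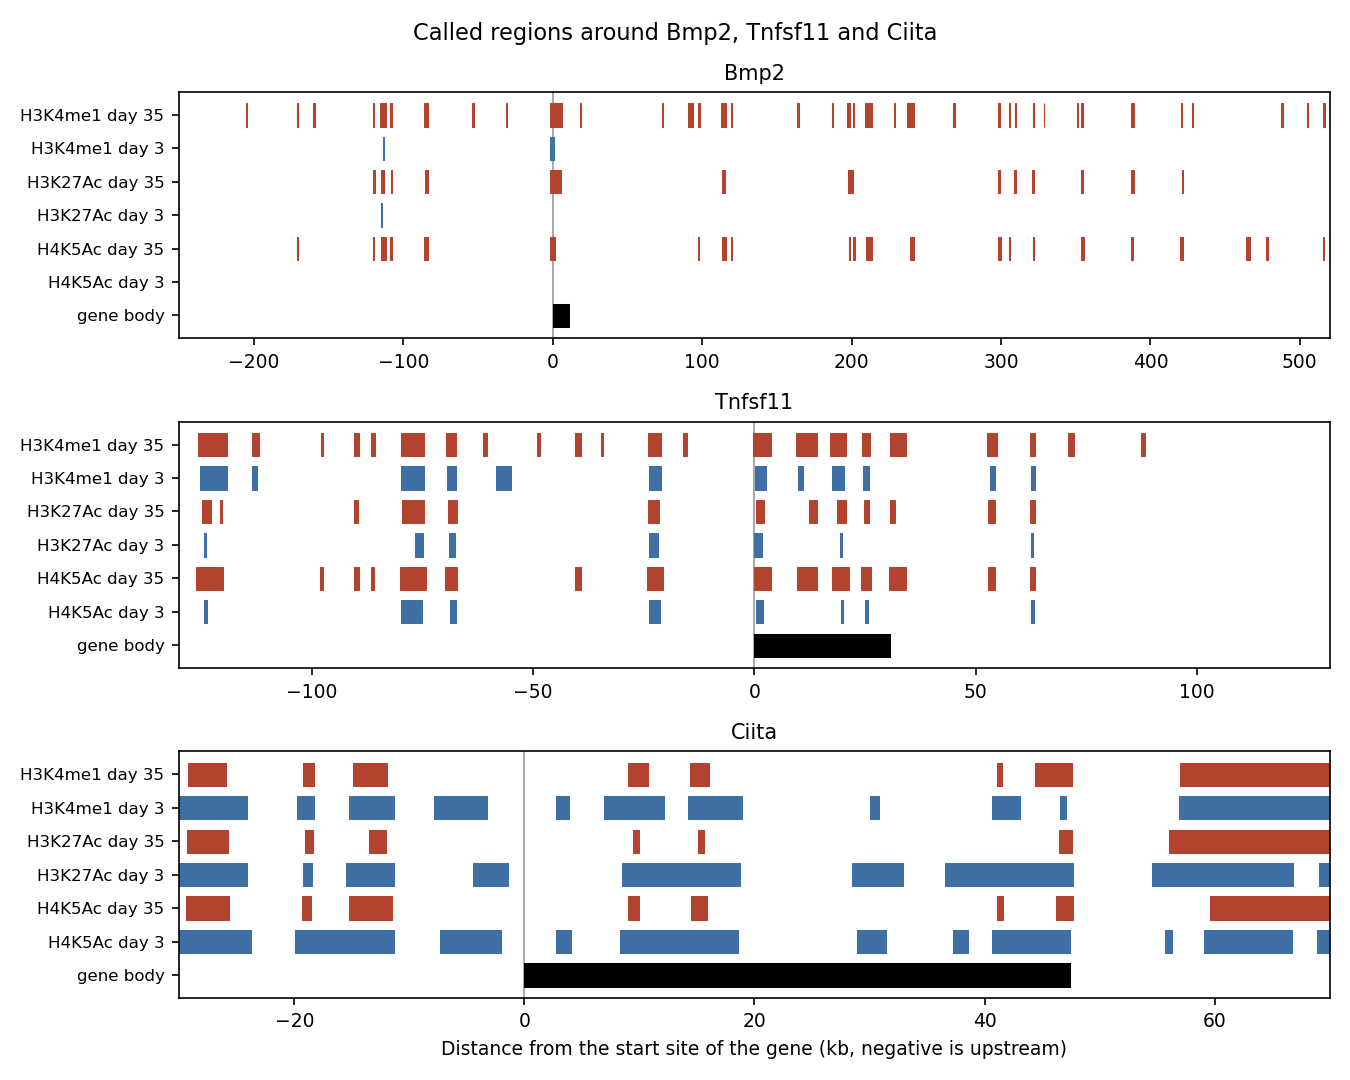
Called regions of H3K4me1, H3K27Ac and H4K5Ac at day 35 (red, upper row of each pair) and day 3 (blue, lower row) around 3 start sites, by distance in kb along the gene's direction; the black bar is the gene body. Around Bmp2 the map holds 37 H3K4me1 regions at day 35 and 2 at day 3, around Tnfsf11 22 and 12, and around Ciita 8 and 11.

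Coverage was then compared gene by gene for 21275 protein-coding genes, as the percent of bases under H3K4me1 from 5 kb before to 5 kb after the gene. A gene was called higher or lower at day 35 when this differed by over 20 percentage points. At day 35, 483 genes (2.27%) were higher and 695 (3.27%) were lower than at day 3, and the median difference over all genes was 0. The difference in H3K4me1 went with that in H4K5Ac (Spearman's rho 0.52) and H3K27Ac (0.45) over the 21275 genes, and less with H3K4me3 (0.18). These are descriptions across genes, which are not replicates, and each mark was called from its own library of the same days.

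Among the 483 higher genes, 56.1% were also over 20 points higher in H3K27Ac, against 9.04% of all genes, and 58.6% in H4K5Ac, against 5.30%. Among the 695 lower genes, 26.0% were over 20 points lower in H3K27Ac, against 1.72%, and 29.8% in H4K5Ac, against 2.16%. The higher genes thus had a matching acetyl difference more often than the lower ones, and genes higher in H3K27Ac were also more frequent overall. Transcription-linked marks moved with both groups. H3K36me3, the mark of transcribed bodies, was over 20 points higher at 20.9% of the 483 (5.08% of all genes) and lower at 20.9% of the 695 (4.07%), and H4K20me1 was higher at 29.0% of the 483 (8.83%) and lower at 17.6% of the 695 (2.67%). H3K9Ac was higher at 16.6% of the 483 (2.20%) and lower at 10.9% of the 695 (0.996%). H3K4me2 was higher at 13.5% of the 483 (2.18%), and at the 695 it was lower at 2.01% (0.146%) and higher at 3.597%. H3K9me3, a mark of silent chromatin, was higher at 0.414% of the 483 (0.982%) and lower at 8.35% of the 695 (1.83%), so it did not run opposite to H3K4me1.

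The 12 named genes with the largest positive difference were led by Trib3, a pseudokinase of the stress response, with 100% covered at day 35 and 25.0% at day 3. Nkd2, an inhibitor of Wnt signalling, had 73.2% at day 35 and 16.0% at day 3, Mdfi, an inhibitor of myogenic factors, 56.4% and 8.65%, and Gpc1, a heparan sulphate proteoglycan, 72.8% and 19.7%. Thbs2, a matrix thrombospondin, was covered over 100% at day 35 and 51.9% at day 3. H3K27Ac was also over 20 points higher at 9 of the 12. The others were Gpbar1, Tuba1b, Tmem177, Tor1a, Adam1b, Tuba4a and Chic2. At Tmem177 the 2 kb on each side of the start had 69.8% covered at day 35 and 75.6% at day 3. At Chic2 H3K27Ac was lower at day 35 (13.9%) than at day 3 (35.8%). Tuba1b had 62.5% H3K4me1 and 62.8% H3K27Ac at day 35 and 0% of both at day 3. Its H3K4me2 was level, with 61.4% at day 35 and 61.2% at day 3, and its H4K5Ac stood at 66.4% and 76.6%.

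The 12 with the largest negative difference were led by Sp8, a limb patterning factor, with 9.53% at day 35 and 88.6% at day 3. Developmental regulators made up 5 of the 12, with Hoxd8 at 9.70% at day 35 and 82.5% at day 3, Hoxa13 at 29.1% and 100%, Foxa2 at 5.49% and 64.6%, and Dmrta2 at 10.2% and 70.3%. Interferon and inflammatory genes were the second kind, with Ifnb1, which encodes interferon beta, at 8.09% and 77.3%, Ifi27l1, an interferon-induced gene, at 32.2% and 94.9%, and the chemokine gene Cxcl3 at 5.50% and 81.3%. These kinds were named after the 12 had been seen. H3K27Ac was over 20 points lower at 7 of the 12. At Lrdd it was 100% on both days while H3K4me1 stood at 33.2% at day 35 and 100% at day 3, and at Phf13 it was over 20 points higher at day 35. The remaining 2 were Paqr4 and Krt13.

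In the interferon response list, 8 of 18 genes were over 20 points lower in H3K4me1 at day 35 and 0 were higher. Over all genes 3.27% were lower and 2.27% higher, shares that apply beside each list below. The median difference was -18.8 points against 0 over all genes. The list's median coverage at day 3 was 68.6%, against 20.1% over all genes, and a gene covered under 20% at day 3 cannot be called lower. Ifit1, an RNA-binding antiviral protein, was covered over 29.7% at day 35 and 83.8% at day 3. Gbp3, an interferon-induced GTPase, stood at 20.5% at day 35 and 65.8% at day 3, and Irf9, the DNA-binding part of the ISGF3 complex, at 35.4% and 72.2%. The others past 20 points were Stat2, the immunoproteasome subunits Psmb8 and Psmb9, the peptide transporter Tap1 and B2m, the light chain of MHC class I. Psmb8, Psmb9 and Tap1 are neighbours on chromosome 17 whose windows share bases. H3K27Ac was over 20 points lower at 6 of these 8, all but Irf9 and B2m. Under the threshold stood the GTPase gene Gbp2, with 22.4% at day 35 and 38.5% at day 3. Within 50 kb, 5 of the 18 genes had a gained distal region and 11 a lost one, against 53.7% and 46.9% of all genes.

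Of 8 MHC class II genes 2 were over 20 points lower and 0 higher, H2-Eb1 with 22.1% at day 35 and 66.5% at day 3 and H2-Aa with 15.1% and 39.6%, while the list's median difference was -13.5 points. Ciita, the master activator of these genes, stood at 12.2% at day 35 and 28.6% at day 3, under the threshold. It had 3 lost distal regions and 0 gained, and all 3 carried H4K5Ac at day 3 and none at day 35.

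Of 19 cell cycle genes of S phase and mitosis, 6 were over 20 points lower (3.27% of all genes) and 0 higher (2.27%). Their median difference was -8.89 points, smaller in size than the -18.0 points of the housekeeping list. Top2a, the topoisomerase of dividing cells, was covered over 8.15% at day 35 and 40.4% at day 3, E2f1, an S-phase transcription factor, over 27.5% and 77.3%, and Aurkb, a mitotic kinase, over 14.6% and 46.9%. Ccna2, Ccnb1 and Birc5 were the other 3. The proliferation marker Mki67 stood at 16.5% at day 35 and 35.99% at day 3. Among 12 genes of the G1 phase, 1 was higher, Ccnd1, which encodes cyclin D1, with 76.8% at day 35 and 51.4% at day 3, and 0 were lower. In the 2 kb on each side of its start Ccnd1 went the other way, with 42.4% at day 35 and 47.1% at day 3.

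Of 8 housekeeping genes, listed as a control, 4 were over 20 points lower and 0 higher, with a median of -18.0 points, close to that of the interferon list. The 4 were Actb, Rplp0, Ppia and Eef1a1. Actb stood at 63.8% at day 35 and 100% at day 3. Their acetylation moved less than that of the interferon and cell cycle genes, since 0 of the 4 were over 20 points lower in H3K27Ac and the median H3K27Ac difference over all 8 was 6.92 points. Over all 18 interferon genes that median was -22.7 points and over all 19 cell cycle genes it was -18.7 points. In H3K4me1 coverage the interferon and housekeeping medians thus lay within 1 point of each other.

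Of 20 osteoblast genes 2 were over 20 points higher at day 35 (2.27% of all genes) and 0 lower (3.27%), with a median difference of 4.70 points over the list. Ibsp, which encodes bone sialoprotein of mineralizing matrix, was covered over 45.6% at day 35 and 22.7% at day 3, and its H3K27Ac over 83.7% and 6.00%. Bmp2 stood at 37.6% at day 35 and 12.98% at day 3. Of the 20 genes, 12 had a gained distal region within 50 kb and 11 a lost one, against 53.7% and 46.9% of all genes. The lineage genes Sp7, at 100% on both days, Col1a2, at 97.6% and 97.5%, and Runx2, at 79.5% and 75.3%, differed by less than 5 points. Acetylation differed more than H3K4me1 at several of them. Postn, which encodes the matrix protein periostin, had H3K4me1 over 47.5% at day 35 and 34.7% at day 3, under the threshold, and H3K27Ac over 96.1% and 30.9%. Spp1, which encodes osteopontin, had H3K4me1 over 44.5% at day 35 and 39.3% at day 3 and H3K27Ac over 88.0% and 37.2%. In all, 8 of the 20 were over 20 points higher in H3K27Ac (9.04% of all genes) and 0 lower (1.72%). Alpl, the phosphatase of mineralizing cells, had H3K4me1 over 90.1% and 78.3%, Col1a1 over 91.5% and 100%, and Bglap, which encodes osteocalcin, over 12.4% and 21.2%.

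Osteocyte genes gave no common direction, with 1 of 17 higher, 2 lower and a median of -0.017 points. Tnfsf11, which encodes the osteoclast-inducing cytokine RANKL, was covered over 43.8% at day 35 and 19.3% at day 3, and 11 of its 20 distal day-35 regions were gained. Dmp1, whose promoter sequence the transgene shares, stood at 68.4% at day 35 and 70.2% at day 3. Mepe, a matrix phosphoglycoprotein beside it on chromosome 5, had 35.2% at day 35 and 60.8% at day 3, while its H3K27Ac was 58.3% at day 35 and 40.3% at day 3. Sost, which encodes the Wnt inhibitor sclerostin, stood at 17.5% and 20.8%, Fgf23, a phosphate-regulating hormone, at 16.3% and 10.9%, and Dkk1, another Wnt inhibitor, at 19.2% and 39.4%. Gja1, the gap junction protein of osteocyte processes, had H3K4me1 over 80.1% at day 35 and 97.4% at day 3 and H3K27Ac over 98.0% and 62.5%. The hyaluronan receptor gene Cd44 and the podoplanin gene Pdpn, an early osteocyte marker, stood at 70.5% and 48.5% at day 35, against 75.03% and 42.4% at day 3.

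Genes of mineralization were mostly level, with large differences at a few. Of 16 members 3 were higher (2.27% of all genes) and 1 lower (3.27%). Phospho1, the phosphatase that starts mineral formation in matrix vesicles, was covered over 79.3% at day 35 and 36.8% at day 3, Smpd3, a sphingomyelinase needed for mineralization, over 65.9% and 36.5%, and Ank, a pyrophosphate exporter, over 58.6% and 34.8%. H3K27Ac was over 20 points higher at all 3. Anxa5, a calcium-binding annexin, was the lower one, with 74.3% at day 35 and 100% at day 3.

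Signalling lists held single genes past the threshold in both directions. Of 22 Wnt genes 3 were higher (Tcf7, Sfrp1 and Wnt5a) and 2 lower (Fzd4 and Dkk1), against 2.27% and 3.27% of all genes. Tcf7, a nuclear effector of Wnt signalling, stood at 82.8% at day 35 and 41.4% at day 3, and the receptor gene Fzd4 at 17.7% and 54.9%. Of 30 BMP and TGF-beta genes 2 were higher, Bmp2 and the signal transducer Smad1, and 0 lower. Of 20 genes of the growth factor response 3 were higher, all of them feedback inhibitors (Spry1 with 71.4% at day 35 and 25.7% at day 3, Spry4 and Dusp5), and 1 was lower, the AP-1 gene Fos. Another AP-1 gene, Fosl1, stood at 95.5% at day 35 and 100% at day 3, and Myc at 58.7% and 62.2%. In the 2 kb on each side of the start, Spry1, Dusp5 and Sfrp1 went the other way, with 70.3%, 84.2% and 93.3% at day 35, against 72.6%, 88.8% and 100% at day 3. Of 15 vitamin D targets and partners 3 were higher (Rxrb, Tnfsf11 and Klf4) and 0 lower.

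Matrix and contact genes were mixed. Among 24 collagen and matrix genes, Fn1, which encodes fibronectin, stood at 56.7% at day 35 and 18.4% at day 3, Col5a1 at 79.7% and 49.1%, and Col12a1 was the 1 lower gene. In the 2 kb on each side of its start Col5a1 went the other way, with 48.5% at day 35 and 100% at day 3. Among 13 proteases and inhibitors, Mmp3 and Timp3 were higher and Adamts5 was lower. Among 25 genes of cell contact and guidance, Sema7a and Plxna2 were higher and Sema3a and Sema3e lower, all of them semaphorins or a receptor of semaphorins. Sema3e stood at 10.3% at day 35 and 30.9% at day 3, with 0 gained and 7 lost distal regions within 50 kb. Of 21 nuclear receptor genes only Nr2f2 passed the threshold, and it was lower. Of 15 cytokine receptor genes 0 did.

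Markers of other cell types were covered less than osteoblast genes on both days. The median coverage was 57.9% at day 35 and 48.9% at day 3 for the osteoblast list, 23.8% and 15.7% for adipocyte markers, 21.5% and 14.3% for haematopoietic and osteoclast markers, 15.8% and 23.2% for chondrocyte markers, 12.7% and 18.6% for myogenic markers, 8.43% and 5.11% for endothelial markers and 0.848% and 2.47% for neural markers. Past the threshold were Pparg and Plin1 of the adipocyte list, both lower at day 35, Myog, which was higher, and Acta1, which was lower, of the myogenic list, and Sfpi1, the older symbol of Spi1, of the haematopoietic list, which was higher. At Myog the 2 kb on each side of the start had only 1.80% covered at day 35 and 0% at day 3. Gained regions downstream of Myog lay inside the Ppfia4 gene, and H3K27Ac over the Myog window differed by -1.15 points. Pparg, the master regulator of fat cells, stood at 38.0% at day 35 and 68.7% at day 3. Sox9, the master regulator of cartilage, stood at 47.3% and 47.2%. In a cell population, a difference in coverage cannot be told apart from a change in the share of cells that carry the mark.

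**Figure D3:**
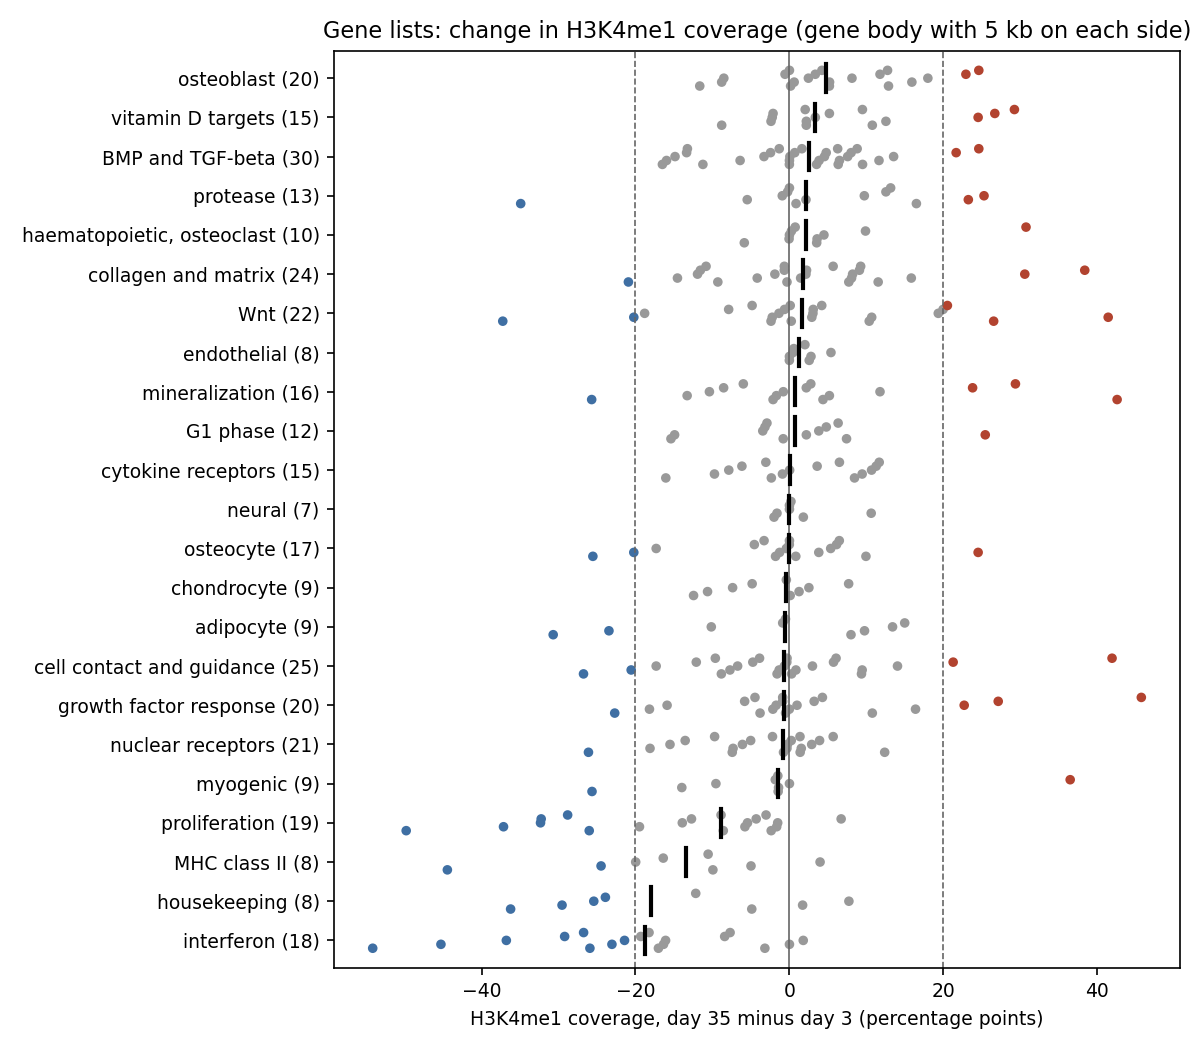
Difference in H3K4me1 coverage, day 35 minus day 3 in percentage points, for each member of 23 gene lists (1 point per gene, number of genes in brackets), ordered by the median (black bar). Red points are over 20 points higher at day 35 and blue points over 20 lower; the interferon and housekeeping lists stand lowest, with medians of -18.8 and -18.0 points, and the osteoblast list highest at 4.70.

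Around active start sites the H3K4me1 domain was narrower on the upstream side at day 35. At the 8203 genes with H3K4me3 within 500 bp of the start on both days, H3K4me1 covered the start itself in 94.4% at day 35 and 97.01% at day 3. The largest difference was 1.2 kb upstream, where 64.9% were covered at day 35 and 74.0% at day 3. At the same distance downstream 94.8% were covered at day 35 and 96.1% at day 3. On each day the called H3K4me1 regions lay at least 2000 bp apart. A dip in signal shorter than that, as at the centre of a promoter, cannot be seen in this coverage. The whole H3K4me3 list covered 0.740 times as many bases at day 35 as at day 3, which moves with this narrowing, and its part in it was not tested.

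Where H3K4me3 itself was called on 1 day, H3K4me1 moved with it beside the start. At the 177 genes with H3K4me3 at day 35 alone, H3K4me1 covered 66.7% of positions 2.6 kb downstream of the start at day 35 and 44.1% at day 3, and 32 of these genes (18.1%) were over 20 points higher in the gene window, against 2.27% of all genes. At the 1365 genes with H3K4me3 at day 3 alone, 55.9% were covered 1.1 kb upstream at day 35 and 69.2% at day 3, and 93 genes (6.81%) were lower, against 3.27%. At the start itself the days differed by less than 3 points in each of these classes. At 11530 genes with no H3K4me3 on either day, the start was covered in 28.5% at day 35 and 27.6% at day 3.

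At some start sites H3K4me1 went against the gene window. At Psmb9 and Tap1, which share a start region, H3K4me1 covered all of the 2 kb on each side at day 35 and 46.6% at day 3, while H3K4me3 at Psmb9 covered 49.2% of it at day 35 and 96.0% at day 3. At E2f1, where both windows were lower at day 35, the 2 kb on each side of the start had no H3K4me1 at day 35 and 100% at day 3, and H3K27Ac covered all of it on both days.

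**Figure D4:**
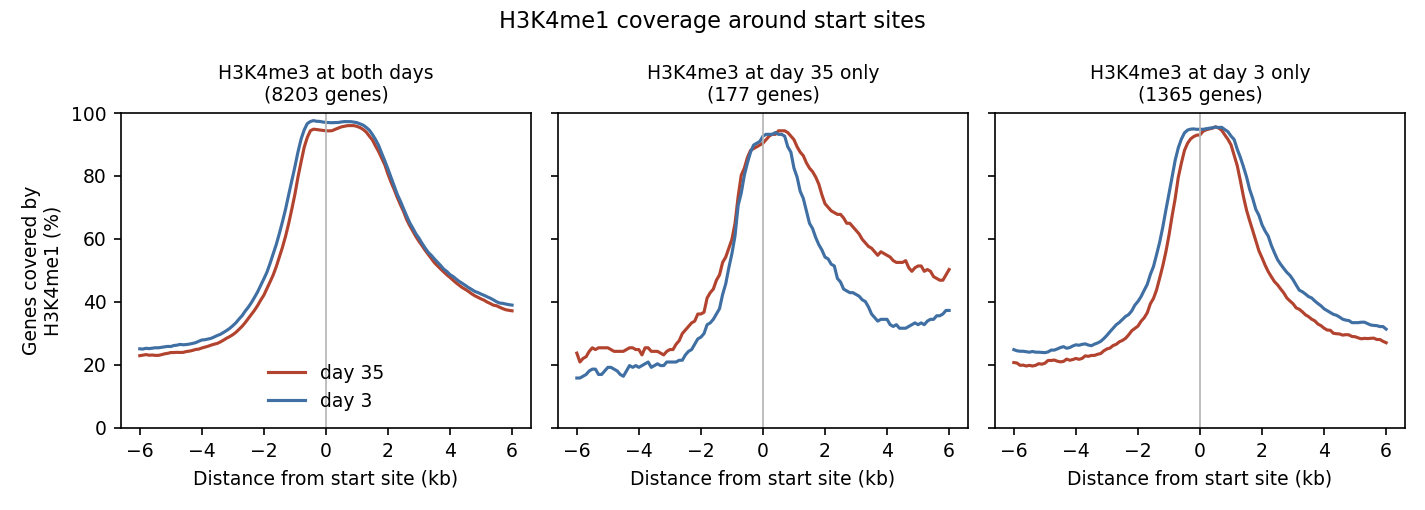
Percent of genes covered by H3K4me1 at each distance from the start site (kb, negative is upstream) at day 35 (red) and day 3 (blue), for genes with H3K4me3 on both days, at day 35 alone and at day 3 alone. In the first class the day-35 line runs below the day-3 line upstream (64.9% and 74.0% at -1.2 kb) and close to it downstream.

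The balance of the days differed between chromosomes. Chromosome 1 had 1.18 times as many covered bases at day 35 as at day 3, with 1891 gained and 568 lost distal regions, and chromosomes 14, 7, 18 and 17 stood at 1.11, 1.09, 1.09 and 1.09. Chromosome 4 stood lowest at 0.896, with 930 gained and 1020 lost regions, followed by chromosome 16 at 0.908 and chromosome 3 at 0.924. On chromosome 1, 4.49% of genes were higher and 1.06% lower, and on chromosome 19, 1.25% were higher and 5.42% lower. On some chromosomes the difference ran along most of the length. Of the 10 Mb bins with over 0.1 Mb covered at day 3, 18 of 19 on chromosome 1 and 9 of 9 on chromosome 17 held more at day 35, against 2 of 16 on chromosome 4. Others were mixed, with 7 of 19 on chromosome 2, 8 of 15 on chromosome 6 and 6 of 12 on chromosome 13. Chromosome 14 had 9 of 12, with ratios of 0.646 to 1.49.

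Other marks shared this order. Relative to all 19 chromosomes, the ratios of H4K5Ac, H3K27Ac and H3K36me3 on chromosome 1 were 1.26, 1.23 and 1.12, and on chromosome 4 they were 0.841, 0.873 and 0.919. Across the 19 chromosomes the ratio of H3K4me1 had a Spearman's rho of 0.97 with that of H4K5Ac, 0.96 with H3K27Ac, 0.95 with H3K36me3, 0.88 with H4K20me1 and 0.84 with H3K4me2, against 0.23 with H3K9Ac, -0.02 with H3K9me3 and -0.20 with H3K4me3. Chromosomes of 1 pair of cell populations are no replicates. A difference between the days in the number of copies of whole chromosomes was not tested, and it bears on the differences at every gene named here. On chromosome 1 lie Plxna2, Epha4 and Gli2, with gained regions, and Gpbar1, Tmem177, Gpc1 and Tuba4a, among the 12 largest rises. On chromosome 4 lie Ifnb1, Phf13 and Dmrta2, among the 12 largest falls, and Epha7, with many lost regions. Ciita, Adamts5 and Cadm2, with lost regions, are on chromosome 16. Without chromosome 1, 16483 regions were gained and 11504 lost, 428 genes were higher and 682 lower.

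**Figure D5:**
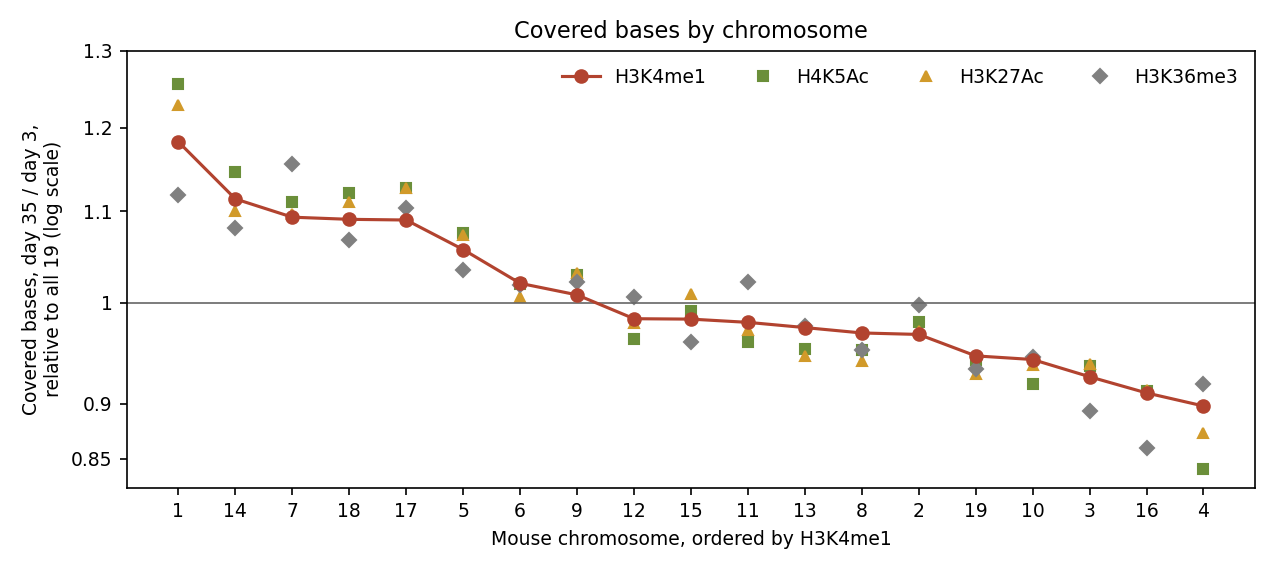
Covered bases at day 35 divided by day 3 for each chromosome, relative to the same ratio over all 19 (log scale), for H3K4me1 (red line) and 3 other marks. Chromosome 1 stands highest for H3K4me1 at 1.18 and chromosome 4 lowest at 0.898, and H4K5Ac, H3K27Ac and H3K36me3 lie close to the H3K4me1 line.

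Binding sites of the vitamin D receptor (VDR) and RXR, mapped at day 35 after 3 h of 1,25-dihydroxyvitamin D3 (100 nM), lay mostly in H3K4me1 regions present on both days. Of 1202 VDR sites found in both replicates, 3.91% were in H3K4me1 at day 35 alone, 89.4% on both days and 2.58% at day 3 alone. Of 6735 RXR sites, 1.74% were in H3K4me1 at day 35 alone, 97.2% on both days and 0.535% at day 3 alone. Such an RXR site lay in 81 gained distal regions (0.441%), among them the Bmp2 region shown above, and in 6 lost ones (0.0497%). Kept distal day-35 regions held one more often, at 6.88% of all and at 1.64% of those no wider than 2 kb.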

How the data were processed

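Chromatin immunoprecipitation with sequencing was done on IDG-SW3 cells, and each deposited list holds 1 library's regions with start, end and a score. Each score was set by the authors and deposited without its scale being stated. Per the submitters' processing notes, Bowtie, HOMER and the mm9 build were used, with versions and settings not given in the sources used here. Read depth is unknown, so no precision could be set from it.

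Regions on chromosomes 1 to 19 were compared by overlap (at least 1 bp) and by percent coverage of each GENCODE M1 protein-coding gene with 5 kb on each side. On all 19 chromosomes the regions lay within the NCBIM37 lengths. The 23 gene lists held 350 distinct genes, of which 342 were found. Fgfr2 has a gene model that spans 3019 kb with its flanks, so its coverage averages over neighbouring loci.

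The members, lists and motifs were chosen with earlier results of these data known. Named genes were the 12 largest differences each way, the 8 nearest genes with the most net gained or lost bases, genes at the 10 highest-scoring regions and 6 largest 100 kb windows each way, list members past 20 points and a preset group of bone, interferon and cell cycle genes, of which 1 is not reported here. With 1 library a day no test was run, and Wilson 95% intervals cover counting error only. Interval functions were tested on simulated data. Python 3.11.15, numpy 2.4.6, pandas 2.3.3, scipy 1.17.1 and matplotlib 3.10.9 were used. Alternatives varied the overlap, score, gene window and threshold.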

Additional observations from a re-analysis of the deposited data

How the results depend on the processing

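No paired analysis was possible because H3K4me1 has 1 library per day. Where a region counted as gained or lost with less than 50% of it covered on the other day, 25512 were gained and 18237 lost, and H3K27Ac overlapped 38.6% of gained regions at day 35 and 36.4% of lost regions at day 3. With the higher-scoring 50% of each list, 8286 were gained and 5389 lost, 65.6% of covered bases were shared, and those H3K27Ac shares were 83.8% and 82.5%; the other day's list was also cut, so a region can count as gained beside a low-scoring partner. With equal numbers of regions, 13630 were gained and 14870 lost, which turns their order, with shares of 32.4% and 22.8%. Genes over 20 points higher and lower numbered 180 and 279 with 20 kb on each side, and 866 and 1565 in the 2 kb on each side of the start site. They numbered 1730 and 2190 at 10 points, and 132 and 226 at 30 points. Alternatives chosen after seeing the data were leaving out chromosome 1, the middle 500 bases of a region, where the H3K27Ac shares were 24.4% and 19.3%, and gene windows without start sites, with 657 genes higher and 809 lower. In every alternative run on genes, more were lower than higher. Merging regions closer than 1 kb altered nothing, since the smallest gap was 2000 bp. Of 83 named genes, 44 stayed past 20 points with 20 kb flanks. Around the start site alone 45 did and 9 turned direction, with differences of -10.4 points for Adamts17, -4.75 for Ccnd1, -51.5 for Col5a1, -4.52 for Dusp5, -6.67 for Sfrp1, -2.35 for Spry1, -5.87 for Tmem177, and 53.4 for both Psmb9 and Tap1. Unknown depth and single libraries limit every count, and narrow, low-scoring regions are the ones most often called on 1 day.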
